A study of Mus musculus with 6 samples.

Results

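The genes described here carry symbols from families named for germ cells, sperm, cilia, centrosomes and the microtubule motors that serve them. They were chosen by symbol alone (Tex, Spata, Spag, Odf, Dnah, Dnaic, Ccdc, Cfap, Ift, Ttc, Tekt, Catsper, Adam, Daw, Tepp, Tssk, Sycp, Stag3, Bbs, Cep and Kif, with Tex, Ift and Adam counted only before a digit and Spag9 left out), and 55 of the 2898 genes listed in any of 6 RNA sequencing libraries met the choice. The libraries came from primary mouse medullary thymic epithelial cells (mTECs) placed on a fibrin gel with human dermal fibroblasts and infected with lentiviruses that carried an shRNA and a GFP reporter. There were 2 libraries with an shRNA against Raver2 (sh1 and sh2), 2 with an shRNA against Setd2 (sh1 and sh2), and 2 with an shRNA against LacZ, the control (Ctr). The cells were seeded as CD45- EpCAM+ Ly51- I-A/E+ cells, and viable infected cells were recovered by sorting for I-A/E and GFP 5 days after infection; no source used here gives strain or age. The hairpins of a target differ, and the labels do not tell whether libraries of 1 group are separate cultures or animals, so the p-values below reflect the spread among these 6 libraries only and that spread may be technical.

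Each splicing event had an inclusion frequency, deposited by the authors as a fraction between 0 and 1. Of the 55 genes, 48 were listed in all 6 libraries with the same number of events and were compared, giving 87 of the 4658 events compared over all genes. Each library listed 91 to 96 events of these genes. The read depth behind a fraction is unknown, and an event is known only by its gene and its place in the gene's list, so "event 2" below is the second listed event of that gene. No source used here gives the coordinates of an event, its class or which of its 2 forms counts as included. Whether the same place in the list holds the same event in every library could therefore not be checked. Fractions carry no expression level. Raver2 and Setd2 had no listed event, so the extent of either knockdown could not be checked. Events were listed for 2 of 10 thymic epithelial markers (Aire and Cd74), 2 of 10 fibroblast markers (Postn and Fn1), 3 of 10 leukocyte markers (Ptprc, Cd8a and Lck) and 0 of 7 markers of ciliated or tuft-like thymic cells; a listed event does not measure how many such cells were present.

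A cilium is a microtubule rod, the axoneme, that grows from a centriole and is built by intraflagellar transport: kinesin motors carry protein trains to the tip, and dynein returns them. The sperm tail is a specialised cilium with added outer dense fibres and its own calcium channel, CatSper. Testis and cilium proteins are among the tissue antigens that mTECs present to developing T cells, partly under the control of Aire, and many of the same genes also serve the centrosome and cytoskeleton of dividing or resting cells. Raver2 is an RNA-binding partner of the splicing regulator PTB, and Setd2 methylates histones along genes that are being transcribed.

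By role, the 55 genes comprised 10 sperm and testis genes, 3 genes of ciliary transport, 1 axoneme gene (Daw1), 5 centrosome genes, 7 kinesins, 6 ADAM genes, 5 other genes with tetratricopeptide symbols and 18 other genes with coiled-coil symbols. No Sycp, Stag3, Dnah, Dnaic or Tekt gene was listed. These families, which include genes of the meiotic chromosome axis and of the dynein arms, are therefore not represented among the members. Hormad1, a meiosis gene outside these symbols, was listed but is not a member. Several symbols do not mark a germ cell or ciliary protein: Tex264 encodes a receptor for autophagy of the endoplasmic reticulum, Ttc19 a protein of mitochondrial respiratory complex III, Adam17 a widely expressed sheddase and Cep55 a factor of cell abscission. Conversely, Ccdc11 and Ttc18 are older symbols of Cfap53 and Cfap70, both axonemal proteins, and Ccdc132 is an older symbol of Vps50, an endosomal tethering protein. The set is therefore a family of names rather than a set of genes specific to testis or cilia.

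For Raver2 knockdown against Ctr, 1 of 87 member events, in Ccdc85b, had an adjusted p under 0.05 (limma). This was 1.15% of the member events, against 2.43% of all events, and the call was lost in 8 of 12 other settings. For Setd2 knockdown against Ctr no member event passed, against 2.23% of all events. Ccdc85b, which encodes a coiled-coil protein found at adherens junctions, lies on chromosome 19 (5453180 to 5457894, minus strand, mm10, GENCODE M21). Its annotation holds 2 transcripts, drawn in the plot of annotated transcripts. The upper one is 1 exon with a coding length of 606 bases, and the lower one lacks 155 bases from within that coding part and has a coding length of 255 bases. The 155 bases are shown because they are the annotated internal difference between the transcripts of the only gene with a called event, which lists 1 event. They begin with GT and end with AG, the usual ends of an intron, given in capitals, and their length is not a multiple of 3. That the deposited event is this intron was not tested, since no event position is given.

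Ccdc85b chr19:5457185-5457339 (minus strand, mm10): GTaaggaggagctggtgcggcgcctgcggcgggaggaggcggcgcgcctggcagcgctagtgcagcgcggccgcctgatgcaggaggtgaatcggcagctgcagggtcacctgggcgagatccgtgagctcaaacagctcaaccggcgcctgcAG

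**Figure D1:**
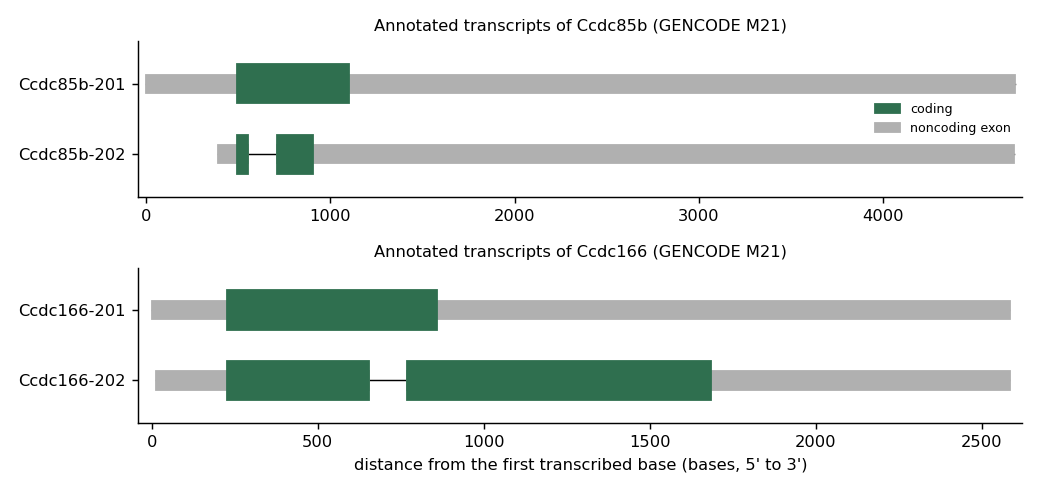
Annotated transcripts of Ccdc85b (top) and Ccdc166 (bottom) in GENCODE M21, with distance from the first transcribed base in bases on the x axis; green boxes are coding, grey boxes noncoding exon and the thin line is the part removed. In each gene 1 transcript keeps, and the other lacks, a stretch inside the coding part, 155 bases in Ccdc85b and 113 bases in Ccdc166.

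Event 1 of Ccdc85b had inclusion frequencies of 0.901 and 0.908 in the Raver2 knockdown libraries, 0.957 and 0.968 in the Setd2 knockdown libraries, and 0.975 and 0.988 in Ctr. The 3 groups did not overlap, and the Setd2 libraries lay between the others. The frequency averaged 0.905 ± 0.00497 under Raver2 knockdown and 0.982 ± 0.00913 in Ctr (SD, n = 2 each), a difference of -0.0772 ± 0.00750 (SE) that passed the test (limma, Benjamini-Hochberg adjustment over all 4658 events, adjusted p = 0.0349). Setd2 knockdown, with a mean of 0.962 ± 0.00758, did not pass against Ctr (limma, adjusted p = 0.479), and the direct comparison of Raver2 with Setd2 knockdown did not pass either (difference -0.0578 ± 0.00750, limma, adjusted p = 0.166). The form counted as included thus made up most of the total in every library, and the called change was smaller than 0.1. The call was close to the threshold: it held in 4 of 12 other settings, and the adjusted p ranged from 0.0354 to 0.123 over the 12. Among single libraries, the adjusted p was 0.123 without Raver2 sh1, 0.121 without Raver2 sh2, 0.0912 without Setd2 sh1, 0.0956 without Setd2 sh2, 0.0652 without Ctr library 2 and 0.0442 without Ctr library 1.

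Ccdc166, another coiled-coil gene with 2 annotated transcripts and 1 listed event, also differs between its transcripts by a stretch inside the coding part (chromosome 15, minus strand). The 113 bases, shown for contrast with Ccdc85b, begin with GC rather than GT and end with AG. Its inclusion frequency was 0.602 and 0.633 with Raver2 knockdown, 0.334 and 0.651 with Setd2 knockdown, and 0.673 and 0.537 in Ctr. The groups overlapped throughout, and the Setd2 sh1 library was the lowest of the 6.

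Ccdc166 chr15:75981688-75981800 (minus strand, mm10): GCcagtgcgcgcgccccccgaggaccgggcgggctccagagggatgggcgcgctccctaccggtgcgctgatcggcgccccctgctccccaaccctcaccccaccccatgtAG

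For Raver2 knockdown against Ctr, 1 of 87 member events passed the adjusted test (1.15%), against 2.43% of all 4658 events. At an unadjusted p under 0.05 the member count was 6 (6.90%), against 12% of all events. Member events whose groups did not overlap and whose means differed by at least 0.1 numbered 4 higher and 8 lower under Raver2 knockdown, against 7.96% of all events higher and 9.98% lower. As shares of the 87 these were 4.60% and 9.20%. For Setd2 knockdown against Ctr, 0 member events passed the adjusted test, against 2.23% of all events, and 3 had an unadjusted p under 0.05 (3.45%, against 11.6%). In that comparison 6 member events lay apart and higher and 6 apart and lower (6.90% each), against 8.33% and 9.66% of all events. For Raver2 against Setd2 knockdown, 0 member events passed (0.730% of all events did) and 5 had an unadjusted p under 0.05 (5.75%, against 6.12%). Here 3 lay apart and higher and 6 apart and lower (3.45% and 6.90%), against 5.09% and 5.88% of all events. The median absolute difference over the members was 0.0397 for Raver2 knockdown against Ctr, 0.0300 for Setd2 knockdown against Ctr and 0.0397 between the knockdowns; over all events it was 0.0423, 0.0412 and 0.0261 in the same order.

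These counts depended on single libraries, and the counts over all 4658 events moved as well. For Raver2 knockdown against Ctr the member count was 4 without Raver2 sh1 (Ccdc11, Ttc18 event 4 and Cep97 events 1 and 2), with 165 calls over all events, and 2 without Raver2 sh2 (Ccdc63 events 2 and 3), with 123 over all. It was 2 without Setd2 sh1 and 2 without Setd2 sh2 (Adam33 and Ccdc169 event 2 each time), with 77 and 74 over all events. It was 3 without Ctr library 1 and 3 without Ctr library 2 (Tssk4 event 2 among them each time), with 291 and 280 over all. For Setd2 knockdown against Ctr it was 2 without Setd2 sh1 (Adam33 and Ift43), with 90 over all events, and 4 without Setd2 sh2 (Catsper3 events 1 and 2, Ccdc169 event 2 and Tex264), with 136 over all. It was 2 without Ctr library 1 and 2 without Ctr library 2 (Ccdc159 among them each time), with 279 and 261 over all events, and 0 without Raver2 sh1 or Raver2 sh2, with 54 and 48 over all. For Raver2 against Setd2 knockdown it was 4 without Raver2 sh1, 2 without Raver2 sh2, 3 without Setd2 sh1 and 4 without Setd2 sh2, with 119, 97, 67 and 106 over all events in the same order. It was 1 (Tssk4 event 2) without Ctr library 1 or Ctr library 2, with 46 and 56 over all. For Setd2 knockdown against Ctr, Ccdc159 was higher without Ctr library 1 and lower without Ctr library 2. Its Setd2 libraries (0.0443 and 0.0460) lay above Ctr library 2 (0.00425) and below Ctr library 1 (0.488). With so few member calls, no order between the members and all events is read from these counts.

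**Figure D2:**
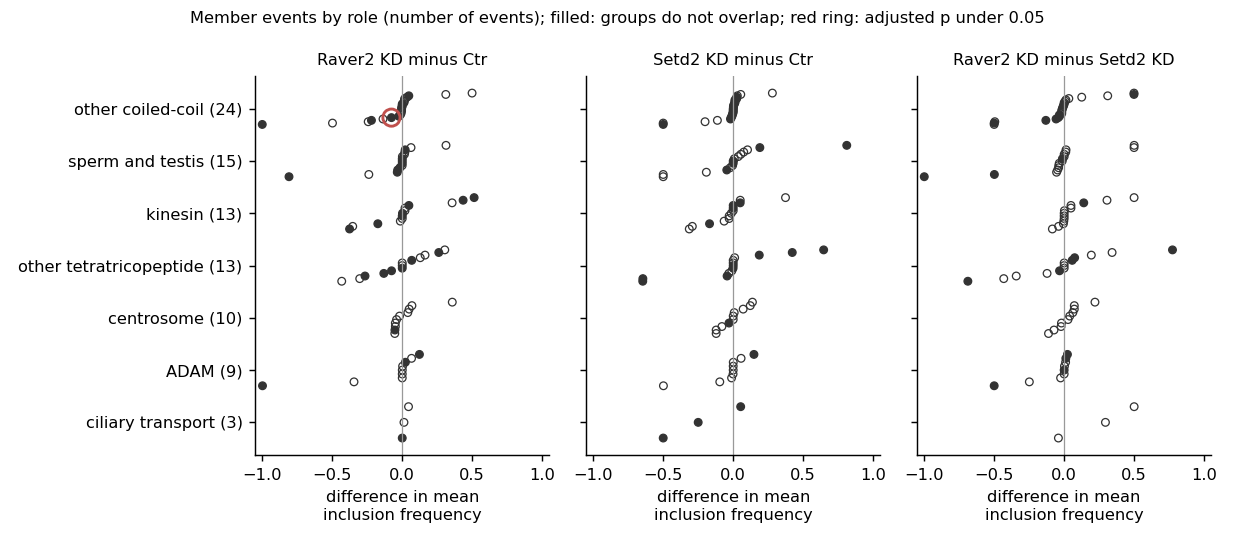
Difference in mean inclusion frequency for each of the 87 member events, by role, for Raver2 knockdown minus Ctr, Setd2 knockdown minus Ctr and Raver2 minus Setd2 knockdown (x axis, fraction). Filled points are events whose groups do not overlap, whatever the size of the difference, and the red ring marks the only event past the adjusted threshold, Ccdc85b event 1 at -0.0772; large differences occur in most roles without passing the test.

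The genes of ciliary transport were Bbs9, a subunit of the BBSome that moves membrane proteins through the cilium, and Ift43 and Ttc21b, both subunits of the transport train for the return journey. The event of Bbs9 had inclusion frequencies of 0.633 and 0.180 with Raver2 knockdown, 0.183 and 0.0404 with Setd2 knockdown, and 0.325 and 0.399 in Ctr. Both Setd2 libraries lay below both Ctr libraries, while the Raver2 libraries lay on either side of them. The difference between Setd2 knockdown and Ctr was -0.25 ± 0.179 (SE) and did not pass (limma, adjusted p = 0.699). The event of Ift43 was above 0.99 in 5 libraries and below 0.01 in Setd2 sh2, so its Setd2 mean of 0.5 ± 0.707 (SD, n = 2) stands for 2 opposite values. Its difference from Ctr of -0.50 ± 0.367 did not pass (limma, adjusted p = 0.699; range over other settings 0.00323 to 1), and among the settings tried it passed only without Setd2 sh1. The event of Ttc21b stayed between 0.893 and 1 in all 6 libraries. Bbs9 lies on chromosome 9, Ift43 on chromosome 12 and Ttc21b on chromosome 2.

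Among the sperm and testis genes, Tssk4, a serine kinase expressed in developing spermatids (chromosome 14, 55650184 to 55652539), had the widest separation between the knockdowns. Its event 2 was below 0.01 in both Raver2 libraries, above 0.99 in both Setd2 libraries, and 0.996 and 0.622 in Ctr. The 3 groups did not overlap. The difference between Raver2 knockdown and Ctr was -0.809 ± 0.140 (SE; limma, adjusted p = 0.142), and that between Setd2 knockdown and Ctr was 0.19 ± 0.140 (limma, adjusted p = 0.699). The difference of -0.999 between Raver2 and Setd2 knockdown, with all 4 knockdown libraries at an end of the scale, also missed the threshold (limma, adjusted p = 0.202; range over other settings 0.0351 to 0.504). It passed without Ctr library 1, without Ctr library 2 and when only the 4 knockdown libraries were fitted. For Raver2 knockdown against Ctr it passed without Ctr library 1 and without Ctr library 2, and the adjusted p ranged from 0.00528 to 0.350 over the other settings. Event 1 of Tssk4 was 0.00298 and above 0.99 in the Raver2 libraries, above 0.99 in both Setd2 libraries, and 0.377 and below 0.01 in Ctr. The Setd2 libraries lay above both Ctr libraries by 0.811 ± 0.392 on average (limma, adjusted p = 0.582), while the 2 Raver2 hairpins gave opposite values.

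Catsper3 encodes a pore-forming subunit of the sperm calcium channel (chromosome 13). Its events 1 and 2 were above 0.99 in 5 libraries and below 0.01 in Setd2 sh1. Its event 3 was 0.00286 and above 0.99 with Raver2 knockdown, 0.0730 and above 0.99 with Setd2 knockdown, and 0.000957 and above 0.99 in Ctr. In each group the first library was thus low and the second high, so the gap lay within groups and not between them. The 2 annotated transcripts of Catsper3 differ by 39 bases at the start of an internal exon. They also differ in where the first exon starts and the last exon ends. Whether the 3 listed events are among these differences was not tested.

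Odf2, which encodes the main protein of the outer dense fibres and also a protein of centriole appendages (chromosome 2), was steadier. Its event 4 ranged from 0.917 to 0.948 over the 6 libraries. Event 1 was 0.782 and 0.770 with Raver2 knockdown, 0.784 and 0.741 with Setd2 knockdown, and 0.798 and 0.820 in Ctr. All 4 knockdown libraries lay below both Ctr libraries, by -0.0326 ± 0.0211 for Raver2 and -0.0458 ± 0.0211 for Setd2, and neither passed (limma, adjusted p = 0.712 and 0.561). Events 2 and 3 summed to 1 and stayed above 0.99 and below 0.01 in every library. Its relative Odf2l had event 2 between 0.701 and 0.840. Spata7, a protein of the photoreceptor cilium, had an event 1 of above 0.99 and 0.141 with Raver2 knockdown, 0.234 and above 0.99 with Setd2 knockdown, and 0.997 and 0.621 in Ctr, with both knockdown groups spanning most of the scale. Tex264 had 0.0897 and 0.0890 with Raver2 knockdown, 0.223 and 0.0636 with Setd2 knockdown, and 0.0700 and 0.0666 in Ctr; the Setd2 sh1 library stood above the other 5. Spag7 ranged from 0.937 to 1.

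The centrosome genes had 10 events, of which 7 lay between 0.01 and 0.99 in every library, against 42.9% of all events. None had groups apart by at least 0.1 in any of the 3 comparisons. Among all events, 7.96% lay apart and higher and 9.98% apart and lower for Raver2 knockdown against Ctr. The shares were 8.33% and 9.66% for Setd2 knockdown against Ctr and 5.09% and 5.88% between the knockdowns. With 10 events, the absence is not read as a trait of these genes. Cep250 encodes the linker protein that holds centrioles together, and its event was 0.786 and 0.764 with Raver2 knockdown, 0.868 and 0.626 with Setd2 knockdown, and 0.886 and 0.770 in Ctr. The groups overlapped, with the Setd2 libraries the widest apart. Event 1 of Cep55 was 0.624 and 0.459 with Raver2 knockdown, 0.508 and 0.720 with Setd2 knockdown, and 0.552 and 0.432 in Ctr, and its events 2 and 3 were identical to each other and the complement of event 1. Event 2 of Cep57l1 was 0.248 and 0.210 with Raver2 knockdown, 0.232 and 0.270 with Setd2 knockdown, and 0.278 and 0.284 in Ctr. All knockdown libraries lay below Ctr, by -0.0523 ± 0.0316 for Raver2 (limma, adjusted p = 0.712) and -0.0300 ± 0.0316 for Setd2 (limma, adjusted p = 0.785). Cep97, which caps centrioles and restrains cilium formation, had an event 3 spread from 0.269 in Ctr library 1 to 0.984 in Raver2 sh1.

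Of the kinesins, Kifc3 encodes a motor that walks to microtubule minus ends and acts at epithelial junctions (chromosome 8, 95099828 to 95202812). Its event was 0.550 and 0.532 with Raver2 knockdown, 0.533 and 0.56 with Setd2 knockdown, and 0.783 and 0.649 in Ctr. The 4 knockdown libraries lay close together, between 0.532 and 0.56, and below both Ctr libraries. The difference from Ctr was -0.174 ± 0.0583 for Raver2 knockdown and -0.169 ± 0.0583 for Setd2 knockdown, and neither passed after adjustment (limma, adjusted p = 0.403 and 0.427). Both comparisons share the same 2 Ctr libraries. Kif1b, a motor of synaptic vesicles and mitochondria that was singled out after its values were seen, was 0.0457 and 0.0670 with Raver2 knockdown, 0.0843 and 0.0335 with Setd2 knockdown, and 0.0103 and 0.00755 in Ctr. All 4 knockdown libraries lay above both Ctr libraries, with differences of 0.0474 ± 0.0203 and 0.0499 ± 0.0203 that did not pass (limma, adjusted p = 0.529 and 0.506).

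The motors that drive ciliary transport toward the tip are Kif3a and, in a subset of cilia, Kif17. The event of Kif3a was 0.00530 and 0.0110 with Raver2 knockdown, below 0.01 and 0.185 with Setd2 knockdown, and 0.733 and 0.0359 in Ctr. Ctr library 1 stood far above the other 5, and the difference of -0.376 ± 0.264 between Raver2 knockdown and Ctr did not pass (limma, adjusted p = 0.712). The event of Kif17 was above 0.99 in both Raver2 libraries, above 0.99 and below 0.01 in the Setd2 libraries, and 0.599 and 0.530 in Ctr. Raver2 knockdown and Ctr did not overlap (difference 0.435 ± 0.368; limma, adjusted p = 0.741), while the Setd2 hairpins lay at opposite ends.

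Kif21a, a motor that dampens microtubule growth at the cell cortex, had the most events of any member, 6. Its event 1 was above 0.99 in both Raver2 libraries, 0.942 and 0.768 with Setd2 knockdown, and 0.0302 and 0.933 in Ctr. Raver2 lay above both Ctr libraries, but Ctr library 1 alone was low (difference 0.513 ± 0.337; limma, adjusted p = 0.712). Its event 5 was below 0.01 in the first library and above 0.99 in the second library of all 3 groups. Event 4 was below 0.01 in the first library of each group, and above 0.99 in Raver2 sh2, 0.388 in Setd2 sh2 and 0.287 in Ctr library 2. Event 6 was 0.00976 and 0.347 with Raver2 knockdown, 0.0581 and 0.378 with Setd2 knockdown, and 0.970 and 0.0941 in Ctr.

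ADAM genes encode membrane proteins with a disintegrin and a metalloprotease domain, and several family members act on the sperm surface. Adam11, which lacks protease activity, had an event at 0.894 and 0.884 with Raver2 knockdown, 0.886 and 0.942 with Setd2 knockdown, and 0.863 and 0.669 in Ctr. All 4 knockdown libraries lay above both Ctr libraries, and Ctr library 2 was the lowest. The differences of 0.123 ± 0.0746 for Raver2 and 0.148 ± 0.0746 for Setd2 did not pass (limma, adjusted p = 0.712 and 0.612). The event of Adam33 was below 0.01 in both Raver2 libraries, above 0.99 and below 0.01 in the Setd2 libraries, and above 0.99 in both Ctr libraries. The difference of -0.998 ± 0.369 between Raver2 knockdown and Ctr did not pass with all 6 libraries (limma, adjusted p = 0.434), and the Setd2 hairpins again lay at opposite ends. It passed when Setd2 sh1, Setd2 sh2 or both were left out (adjusted p from 0.0337 to 0.707 over the other settings). Adam28 spanned 0.242 and 0.2 with Raver2 knockdown, 0.939 and 0.00125 with Setd2 knockdown, and 0.132 and above 0.99 in Ctr. Event 4 of Adam17 was among the steadiest member events, between 0.0462 and 0.0903.

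Among the tetratricopeptide genes, Ttc14 (chromosome 3, 33799832 to 33814860) had 3 events in which Raver2 knockdown and Ctr did not overlap. Only event 3 was apart by at least 0.1, as 7.96% of all events were in the higher direction. Events of 1 gene are not independent, and the share of all events apart by any smaller difference was not counted. Event 3 was 0.630 and 0.643 with Raver2 knockdown, 0.506 and 0.618 with Setd2 knockdown, and 0.308 and 0.443 in Ctr. Event 2 was 0.184 and 0.186 with Raver2 knockdown, 0.141 and 0.115 with Setd2 knockdown, and 0.107 and 0.129 in Ctr. Event 1 was 0.876 and 0.917 with Raver2 knockdown, 0.919 and 0.941 with Setd2 knockdown, and 0.987 and 0.960 in Ctr. In each event the Setd2 mean lay between the other means; in event 2 the Setd2 and Ctr libraries overlapped. The Raver2 differences of 0.26 ± 0.0754 in event 3, 0.0677 ± 0.0145 in event 2 and -0.0765 ± 0.0203 in event 1 had unadjusted p-values of 0.0289, 0.0114 and 0.0222 and did not pass after adjustment (limma, adjusted p = 0.337, 0.208 and 0.290). The Setd2 difference from Ctr in event 3 was 0.186 ± 0.0754 (limma, adjusted p = 0.502).

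**Figure D3:**
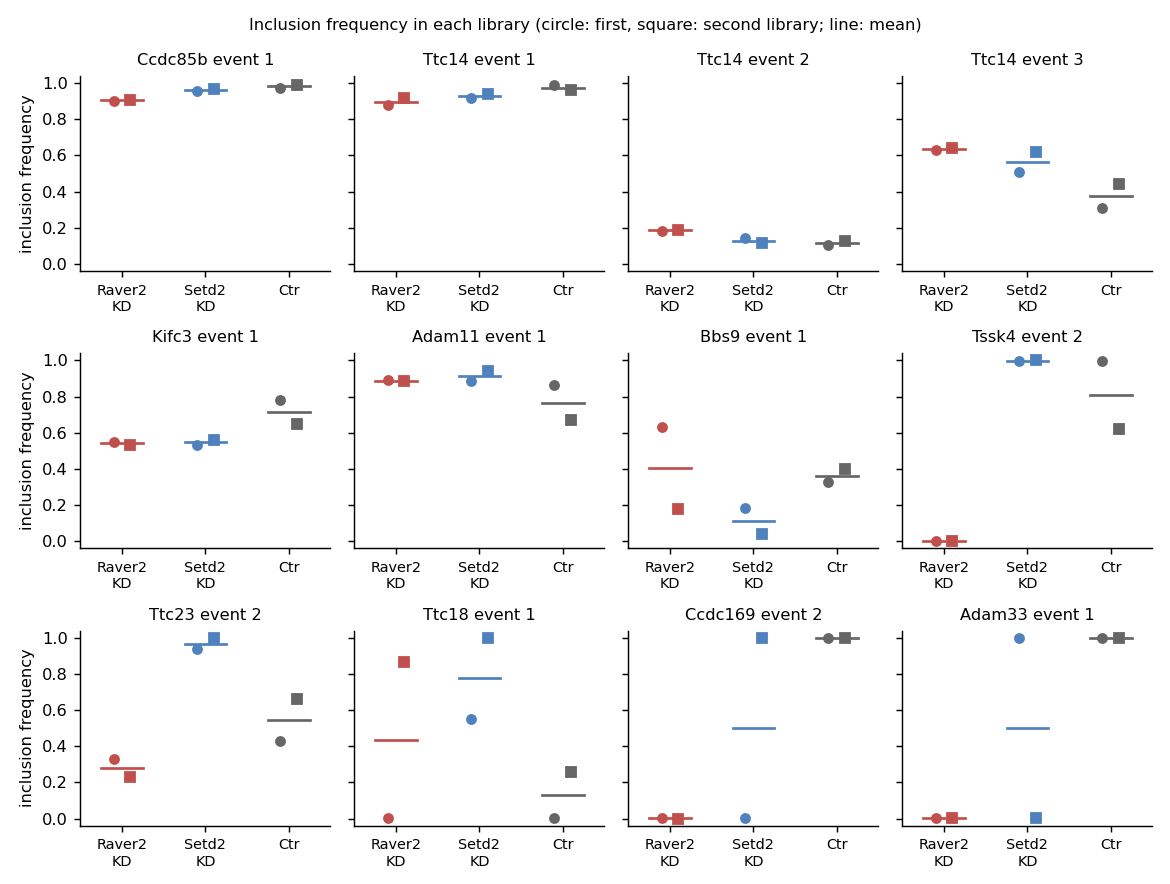
Inclusion frequency (y axis, fraction) in each library for 12 member events, with Raver2 knockdown, Setd2 knockdown and Ctr from left to right; circles are the first and squares the second library of a group, and lines are group means. Ccdc85b, Kifc3 and Ttc14 events 1 and 2 have libraries within 0.1 of each other in each knockdown group, whereas events such as Ttc18 event 1, Adam33 event 1 and Ccdc169 event 2 place libraries of 1 group at opposite ends of the scale.

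Ttc23, a protein of the ciliary base zone that handles Hedgehog signals (chromosome 7, 67647410 to 67762912), had an event 2 of 0.330 and 0.230 with Raver2 knockdown, 0.936 and above 0.99 with Setd2 knockdown, and 0.431 and 0.661 in Ctr. The Raver2 libraries lay below Ctr and the Setd2 libraries above it. The difference from Ctr was -0.266 ± 0.0997 for Raver2 knockdown (limma, adjusted p = 0.440) and 0.422 ± 0.0997 for Setd2 knockdown (limma, adjusted p = 0.235). The knockdowns differed from each other by -0.688 ± 0.0997, which did not pass (limma, adjusted p = 0.212).

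Ttc18 (Cfap70), an axonemal protein, had events 1 and 2 that summed to 1. Event 1 was below 0.01 and 0.865 with Raver2 knockdown, 0.549 and above 0.99 with Setd2 knockdown, and below 0.01 and 0.257 in Ctr. The Setd2 libraries lay above both Ctr libraries (difference 0.646 ± 0.372; limma, adjusted p = 0.699), and the Raver2 hairpins were far apart. Event 3 was above 0.99 in both Raver2 libraries, 0.451 and 0.00165 in the Setd2 libraries, and above 0.99 and 0.743 in Ctr. It differed by 0.774 ± 0.191 between Raver2 and Setd2 knockdown (limma, adjusted p = 0.56) and by -0.645 ± 0.191 between Setd2 knockdown and Ctr (limma, adjusted p = 0.337). Ttc19 was 0.856 and 0.755 with Raver2 knockdown, 0.855 and above 0.99 with Setd2 knockdown, and 0.971 and 0.903 in Ctr, with a Raver2 difference of -0.132 ± 0.0697 (limma, adjusted p = 0.649). Events 2 and 3 of Ttc16 and event 1 of Ttc23 were below 0.01 in all 6 libraries.

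The other coiled-coil genes held 24 events in 15 compared genes. Event 2 of Ccdc169 was below 0.01 in both Raver2 libraries, below 0.01 and above 0.99 in the Setd2 libraries, and above 0.99 in both Ctr libraries. The pattern resembled that of Adam33 except that the other Setd2 hairpin was low, and its Raver2 difference from Ctr of -1.0 ± 0.369 did not pass with all 6 libraries (limma, adjusted p = 0.434). It passed when Setd2 sh1, Setd2 sh2 or both were left out (adjusted p from 0.0316 to 0.707 over the other settings). Ccdc85a, a relative of Ccdc85b, was 0.00112 and 0.000621 with Raver2 knockdown, above 0.99 and 0.00150 with Setd2 knockdown, and 0.279 and 0.162 in Ctr. Raver2 lay below Ctr (difference -0.22 ± 0.369; limma, adjusted p = 0.917), and Setd2 sh1 alone was high. Event 2 of Ccdc50, which encodes a regulator of receptor and NF-κB signalling, was 0.802 and 0.649 with Raver2 knockdown, 0.829 and 0.884 with Setd2 knockdown, and 0.798 and 0.929 in Ctr, and Raver2 differed from Setd2 knockdown by -0.131 ± 0.0771 (limma, adjusted p = 0.964).

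Single libraries set the values of several coiled-coil genes. Ccdc11 (Cfap53), an axonemal protein needed for left-right patterning, was below 0.01 in 5 libraries and 0.623 in Raver2 sh2. Event 2 of Ccdc63, which encodes a docking protein of sperm tail dynein arms, was 0.998 in Raver2 sh1 and below 0.01 in the other 5, with event 3 its complement; its difference of 0.499 ± 0.366 between Raver2 and Setd2 knockdown did not pass (limma, adjusted p = 0.964) and passed only without Raver2 sh2 (0.00397 to 1 over the other settings). Ccdc106 was 0.998 and below 0.01 under Raver2 knockdown, below 0.01 in both Setd2 libraries, and above 0.99 and below 0.01 in Ctr. Ccdc159 was below 0.01 in both Raver2 libraries, 0.0443 and 0.0460 with Setd2 knockdown, and 0.488 and 0.00425 in Ctr.

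Some coiled-coil genes were steady and held repeated entries. Ccdc77 listed 3 events with identical values, from 0.872 to 0.933. Ccdc125 listed 2 events with identical values: 0.956 and 0.920 with Raver2 knockdown, 0.965 and 0.980 with Setd2 knockdown, and 0.962 and 0.932 in Ctr. The Setd2 libraries lay above the other 4, with a difference from Ctr of 0.0253 ± 0.0183 (limma, adjusted p = 0.699). The 2 annotated transcripts of Ccdc125 differ internally by 2 cassette exons, of 78 and 131 bases (chromosome 13, plus strand). These exons are kept in the longer transcript and absent from the shorter. They are shown because this gene lists as many events as its transcripts have internal differences of this kind; that the listed events are these exons was not tested. The shorter exon is a multiple of 3 in length and the longer is not.

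Ccdc125 chr13:100682767-100682844 (plus strand, mm10): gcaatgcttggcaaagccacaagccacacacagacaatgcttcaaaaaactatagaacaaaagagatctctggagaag
Ccdc125 chr13:100694370-100694500 (plus strand, mm10): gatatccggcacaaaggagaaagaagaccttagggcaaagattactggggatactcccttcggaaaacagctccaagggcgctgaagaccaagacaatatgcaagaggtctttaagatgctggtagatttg

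Over the 87 events, libraries of the same group often differed widely. They differed by more than 0.1 in 28 events under Raver2 knockdown (32.2%, against 22.9% of all events), in 33 under Setd2 knockdown (37.9%, against 25.5%) and in 32 in Ctr (36.8%, against 27.7%). A gap above 0.9, from near full exclusion to near full inclusion, occurred in 7 events with Raver2 knockdown, 10 under Setd2 knockdown and 4 in Ctr (8.05%, 11.5% and 4.60%, against 3.48%, 3.78% and 3.59% of all events). The 4 in Ctr were Kif21a events 1 and 5, Ccdc106 event 1 and Catsper3 event 3. In Kif21a event 5 and Catsper3 event 3 the second library exceeded the first by more than 0.9 in all 3 groups, as it did in 3 of the 4658 events over all genes, these 2 included; this count was made after the values were seen. The range over all 6 libraries was above 0.9 in 21 member events (24.1%), against 602 events over all genes (12.9%). Every library lay between 0.01 and 0.99 in 29 member events (33.3%), against 42.9% of all events, while 11 (12.6%) had a range below 0.01, against 10.8%. These shares are given as a description, without a test. No read depth is known for any of them, and the part of depth or of matching by row order in the wide gaps was not tested.

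**Figure D4:**
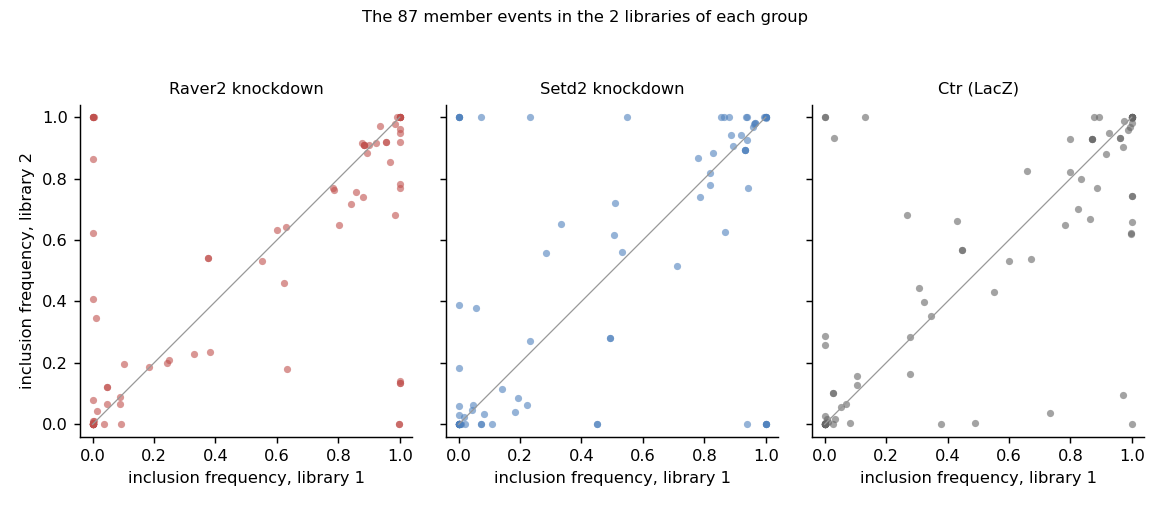
Inclusion frequency of the 87 member events in the second library (y axis) against the first library (x axis) of each group: Raver2 knockdown, Setd2 knockdown and Ctr from left to right, with the line of equal values. Most events lie near the line, and the points in the upper left and lower right corners are the 7, 10 and 4 events whose libraries differed by more than 0.9.

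Events of 1 gene were not independent. Among the members, 6 pairs of events in 4 genes (Ccdc77, Ccdc125, Cep55 and Kif2a) held identical values in every library. A further 5 pairs in 4 genes (Cep55, Ccdc63, Odf2 and Ttc18) summed to 1 within 0.01 in every library, as opposite forms of 1 choice do. Over all genes there were 185 identical pairs in 132 genes and 283 complementary pairs in 187 genes. Of the 87 member events, 5 repeated an earlier event of their gene (5.75%, against 3.46% of all events).

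Which libraries listed a gene at all also varied. All 6 libraries listed 49 of the 55 members (89.1%), against 92.8% of all 2898 genes. Daw1, which encodes an assembly factor for axonemal dynein arms, and Tepp, a gene named for testis, prostate and placenta, were listed in both Ctr libraries and in no knockdown library. This pattern held for 2 of 55 members (3.64%) and 11 of 2898 genes (0.38%). The symbols Daw and Tepp matched no other listed gene, and the members were chosen with earlier results of these data known. The choice itself may have drawn in this pattern, so these shares are not read as a result about the members. The values themselves did not agree between Ctr libraries for Daw1, at 0 and above 0.99, and were below 0.01 in both for Tepp. Tex33, a testis gene, had the opposite pattern: all 4 knockdown libraries listed it, at 0.00718 and 0.00603 under Raver2 knockdown and 0.00881 and 0.0103 with Setd2 knockdown, and neither Ctr library did. That pattern held for 1 of 55 members (1.82%) and 4 of 2898 genes (0.138%). No source used here says what makes a library list an event, so a missing entry is not a measure of expression, and no test was made.

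The remaining 4 genes outside the comparisons were missing from a library or listed a different number of events. Ccdc33 was above 0.99 at events 1 and 3 in both Raver2 libraries and in Setd2 sh2, against below 0.01 and 0.398 in Ctr, with event 2 its complement; Setd2 sh1 did not list it. Spag11b, which encodes epididymal defensin-like peptides, was 1 and 0.950 under Raver2 knockdown, 1 in the Setd2 library that listed it, and below 0.01 and above 0.99 in Ctr. Ccdc136 was below 0.01 and 0.575 under Raver2 knockdown, 0.00101 in the Setd2 library that listed it, and below 0.01 in both Ctr libraries. Ccdc30 listed 2 events in both Raver2 libraries, in Setd2 sh1 and in Ctr library 1, and 1 event in Setd2 sh2 and in Ctr library 2, so its events cannot be matched by order. In the Raver2 libraries event 1 was 1 and below 0.01, and event 2 was 0.00635 and 0.0745. Setd2 sh1 had 1 and 0.0751 at its 2 events, and Ctr library 1 had 1 and 0.0553. The unmatched value was 0.0626 in Setd2 sh2 and 0.00716 in Ctr library 2.

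Other genes of cilia, centrosomes, meiosis and sperm were read from a list of 105 genes outside the symbol families. Of these, 16 were listed and 14, with 24 events, were compared. None passed the adjusted test in any comparison; 2 events had an unadjusted p under 0.05 for Raver2 knockdown against Ctr (8.33%, against 12% of all events), 4 for Setd2 knockdown against Ctr (16.7%, against 11.6%) and 1 for Raver2 against Setd2 knockdown (4.17%, against 6.12%). With 24 events these shares are near those of all events. Mdm1, a centriole protein that limits centriole duplication, gave both of the first and 2 of the 4. They were its events 1 and 2, which are not independent. Event 2 of Mdm1 had nearly the values of event 1 with Raver2 knockdown (0.701 and 0.653) and in Ctr (0.822 and 0.786). Its event 1 was 0.702 and 0.655 with Raver2 knockdown, 0.650 and 0.655 with Setd2 knockdown, and 0.822 and 0.786 in Ctr, with all knockdown libraries below both Ctr libraries. The differences were -0.125 ± 0.0272 for Raver2 (limma, adjusted p = 0.212) and -0.151 ± 0.0272 for Setd2 (limma, adjusted p = 0.150). In event 3 of Mdm1 the Raver2 libraries lay below Ctr (difference -0.0276 ± 0.0269) and the Setd2 libraries above it (0.0454 ± 0.0269). Neither passed (limma, adjusted p = 0.780 and 0.699). Event 1 of Rfx2, a transcription factor of ciliary and spermatid genes, was below 0.01 and 0.0879 with Raver2 knockdown, 0.163 and 0.0964 with Setd2 knockdown, and below 0.01 in both Ctr libraries (Setd2 difference 0.13 ± 0.0406; limma, adjusted p = 0.370). Syce2, of the synaptonemal complex that pairs chromosomes in meiosis, was 0.0180 and 0.0323 with Raver2 knockdown, 0.0654 and 0.0702 with Setd2 knockdown, and below 0.01 and 0.0392 in Ctr (Setd2 difference 0.0482 ± 0.0154; limma, adjusted p = 0.382). Zpbp, an acrosome protein that binds the egg coat, was 0.642 and 0.652 under Raver2 knockdown and above 0.99 in both Setd2 libraries (difference -0.353 ± 0.0939; limma, adjusted p = 0.605), with above 0.99 and 0.745 in Ctr.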

How the data were processed

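The values deposited by the authors were inclusion frequencies, a fraction from 0 to 1 per splicing event. Trimmomatic 0.39, TopHat2 and Cufflinks were used with mm10, per the submitters' processing notes; no source used here says how the fraction was computed or filtered, and its depth is unknown. Total RNA of sorted cells was amplified with SMART-seq v4, per the labels' protocols. Events were matched between libraries by gene and row order, for genes with the same number of events in all 6 libraries. Without coordinates this matching could not be checked. limma 3.58.1 in R 4.3.3 was fitted to the fractions of all 6 libraries (group means, variance trend, two-sided), with Benjamini-Hochberg adjustment over 4658 events and a threshold of 0.05, and was tested on simulated data. Tables were handled with pandas 2.3.3, numpy 2.4.6 and Python 3.11.15. Named were events past the threshold, events whose groups lay apart by at least 0.1 (up to 12 per direction and comparison, 1 per gene), 6 each with the widest Ctr gap and the steadiest values, and the 6 genes with most events; events outside this rule are given as examples of their role group and were chosen after their values were seen. Members and lists were chosen with earlier results of these data known. Gene positions and transcripts came from GENCODE M21, which matched 52 of 55 symbols, and 3 more through RefSeq synonyms. Alternatives were an arcsine scale, no trend, fewer libraries or events, each library left out and a replicate block.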

Additional observations from a re-analysis of the deposited data

Results flagged for a closer look

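Event 2 of Tssk4 was set apart because its difference from Ctr had opposite signs in the knockdowns in every library: the Raver2 change minus the Setd2 change was -0.999. The limma contrast of Raver2 with Setd2 knockdown, which tests this difference, did not pass (adjusted p = 0.202). The Setd2 libraries (0.9986 and above 0.99) barely exceeded Ctr library 1 (0.9962), so the rise under Setd2 knockdown rests on Ctr library 2 (0.622).

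Event 2 of Ttc23 was set apart for the same reason, with a Raver2 change minus Setd2 change of -0.688 (limma, adjusted p = 0.212, not passed).

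Tex33 lay outside the comparisons because no Ctr library listed it, while 4 knockdown libraries did, at frequencies near 0.01. No explanation was tested for any of these.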

How the results depend on the processing

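Leaving out each library in turn moved the member count for Raver2 knockdown against Ctr to 2 to 4 (1 with all), for Setd2 knockdown against Ctr to 0 to 4 (0 with all) and for Raver2 against Setd2 knockdown to 1 to 4 (0 with all); where a group kept 1 library, that library was assumed to vary like the others. Over all events the counts went to 74 to 291 (113 with all), 48 to 279 (104) and 46 to 119 (34) in the same order. For Raver2 knockdown against Ctr the member count was 0 on the arcsine scale, 0 among events between 0.01 and 0.99 (fewer events tested), and 2 with only the 4 libraries compared, these being Adam33 event 1 and Ccdc169 event 2 in place of Ccdc85b; for Raver2 against Setd2 knockdown the last setting gave 1 (Tssk4 event 2). Over all events, only the 4 libraries gave 75 for Raver2 and 0 for Setd2 knockdown against Ctr; events between 0.01 and 0.99 gave 10, 6 and 0, and genes with 1 event gave 38, 37 and 12, in the order above. Apart from the smaller number of events tested, the cause was not tested. The hairpin numbers name different hairpins per target and were not used as a pairing. Over all events, the deviations of Raver2 sh1 and Setd2 sh1 from their group means had a correlation of 0.0146. That value leaves out Ctr and is no test for a batch shared by libraries of the same number. A replicate block, fitted to the 4 knockdown libraries alone, gave 0 member events and 0 of all events for Raver2 against Setd2 knockdown. The same 4 libraries without a block gave 46 over all events. The block also uses up a degree of freedom, so the drop is not read as an effect of replicate number. Of the 342 values of named events under other settings, 320 kept their side of the threshold, 14 newly passed and 8, all of Ccdc85b, no longer passed. Directions of the named events did not reverse. With groups that do not overlap, this outcome was fixed in advance under these settings, so it tells nothing about stability. With 2 libraries a group and unknown depth, a missed threshold does not show equal inclusion.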
